A study of Mus musculus with 200 samples.

Results

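Prl7a1, Prl2c5, Prl2a1, Prl5a1 and Prl4a1 are 5 of 27 mouse prolactin family genes looked up by symbol in the deposited tables, which hold 25006 or 25229 genes each. They are the placental members that were described apart from the placental lactogens Prl3d1, Prl3d2 and Prl3d3. They were chosen by name with results of these data known. Prl7a1 and Prl2c5 were selected on their levels in the Suz12 Eed double knockout epiblast, and which values chose the others was not recorded, so that table is described without a test of the 5 genes.

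Prolactin is a pituitary hormone of lactation. In the mouse its gene has been copied many times, and most of the copies are read in trophoblast, the outer lineage that forms the placenta, and not in the epiblast that forms the embryo. Trophoblast giant cells, the ectoplacental cone and the later spongiotrophoblast each secrete their own mixture of these hormones into the mother. Polycomb repressive complexes, which carry the enzymes for H3K27 methylation and H2A ubiquitination, keep many lineage genes silent in the epiblast, and Kdm6a and Kdm6b are the enzymes that take H3K27 methylation off.

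The study perturbed chromatin regulators and transcription factors in peri-implantation mouse embryos and read RNA by a Smart-seq2 method, which amplifies full-length cDNA, from small pools of cells. The 200 libraries formed 70 groups in 7 tables. Most embryos carried a CRISPR knockout and were cultured to E5.0, and the study's design text calls these knockouts complete. Cells were labelled Epi (epiblast) or PrE (primitive endoderm).

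The groups were as follows. The screen held 40 knockout groups in Epi at E5.0, each set against the wild-type Epi control of its own batch, in 10 batches; Bend3 was done in 2 of them, and in batch 8 (Bend3 knockout and its controls) the titles give the age as 6.0 where the stage label gives E5.0. The screen group labelled Hdac13 was the Hdac1 Hdac3 double knockout. The Suz12 Eed table held double knockout and control in Epi and in PrE. GSK-J4, which inhibits the enzymes Kdm6a and Kdm6b, was given to blastocysts and Epi was taken at E4.5 or E5.0, with wild-type controls and a dose of 50 µM stated for the culture to E5.0. Zbtb17 was knocked out in Epi at E4.5, where a treatment label reads dTAG and the titles read knockout, and it was the target of dTAG at E5.0, an agent that degrades a tagged protein. Embryoid bodies, aggregates of stem cells, were Zbtb17 knockout or wild type at days 0 to 3. Groups had 3 libraries, except for 2 in embryoid bodies, the Ascl2 knockout and the controls of batch 7. Strain was not given. The labels call the replicates biological but tie none to an embryo, so p-values measure the spread between libraries, which may be technical in part.

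Values are TPM, transcript levels scaled by transcript length and library total, which can be compared between genes. The files give no read counts, so the depth of each library is unknown. The 5 genes lie on chromosome 13 (mm10, GENCODE vM21). Prl2c5 stands apart at chr13:13182715-13191923 on the plus strand, near Prl2c2 and Prl2c3. Prl7a1 (chr13:27633366-27642493, minus strand), Prl2a1 (chr13:27801654-27808729, plus), Prl4a1 (chr13:28016212-28023559, plus) and Prl5a1 (chr13:28142484-28151611, plus) sit in the main prolactin cluster, within 518 kb that hold 8 family genes. Each is a protein-coding gene.

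The promoters of the 5 genes are shown because these genes were read together in several perturbations and their promoters share a short word near the start. Each run is the 120 bases before the RefSeq start in GRCm38.p6, 5′ to 3′ on the strand of the gene. Capitals mark TATATA.
Prl7a1 (chr13:27642494-27642613, minus): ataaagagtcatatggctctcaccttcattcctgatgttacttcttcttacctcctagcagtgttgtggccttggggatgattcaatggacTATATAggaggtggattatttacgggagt
Prl4a1 (chr13:28016092-28016211, plus): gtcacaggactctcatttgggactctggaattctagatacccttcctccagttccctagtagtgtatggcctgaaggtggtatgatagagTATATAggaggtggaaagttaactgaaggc
Prl2c5 (chr13:13182596-13182715, plus): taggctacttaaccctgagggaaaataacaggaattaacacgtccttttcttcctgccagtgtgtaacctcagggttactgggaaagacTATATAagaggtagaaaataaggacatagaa
Prl2a1 (chr13:27801535-27801654, plus): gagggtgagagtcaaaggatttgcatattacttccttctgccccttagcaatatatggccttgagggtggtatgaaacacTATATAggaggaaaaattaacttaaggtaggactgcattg
Prl5a1 (chr13:28142364-28142483, plus): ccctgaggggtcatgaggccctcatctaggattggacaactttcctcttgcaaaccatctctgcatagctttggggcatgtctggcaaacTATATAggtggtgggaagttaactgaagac

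TATATA stood in the last 40 bases before the start, on the strand of the gene, in 5 of 5 member promoters, in 16 of 25 family promoters and in 1.14% of all 32851 promoters. The word was picked after these sequences were seen, and a match is a description of letters only. Over the full 250 bases and both strands, TATAAA was in 0 of the 5 promoters and in 12.4% of all promoters. AGATAA, the core word of GATA factors, was in 3 of the 5 (Prl7a1, Prl4a1 and Prl2c5) and in 9.99% of all. TGANTCA, a loose form of the AP-1 word with a free middle base, was in Prl7a1 alone and in 6.75% of all. It reads the same on both strands, and the match within the printed Prl7a1 bases is tgattca. CG dinucleotides numbered 0 in Prl2a1, 1 in Prl7a1 and Prl5a1, and 2 in Prl4a1 and Prl2c5, where the median over all promoters was 6.

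Prl7a1 was the most widely listed of the genes, at 1 TPM or more in 146 of 200 libraries, with a highest value of 2618 TPM. Prl5a1 reached 1 TPM in 133 libraries (highest 662 TPM), Prl2a1 in 94 (highest 373 TPM), Prl2c5 in 84 (highest 1561 TPM) and Prl4a1 in 20 (highest 30.5 TPM). The pituitary hormone gene Prl was listed at 0 in all 200. Identity of the longest reading frames was 93.0% between Prl2c5 and Prl2c2 and 92.8% between Prl2c5 and Prl2c3, so reads of these proliferin genes could be divided wrongly among them. The closest relative of Prl7a1 was Prl7a2 at 70.8%, of Prl2a1 Prl2c1 at 66.0%, of Prl4a1 Prl2c1 at 60.6% and of Prl5a1 Prl at 57.3%.

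Libraries labelled Epi also held trophoblast transcripts, and this was so in controls. The summed level of 11 extraembryonic ectoderm markers ran from 188 to 12064 TPM over the 148 screen libraries, and the sum of 9 epiblast markers from 272 to 3388 TPM. The sum of 6 ectoplacental cone and spongiotrophoblast markers ran from 68.9 to 5763 TPM, though its defining markers Tpbpa and Tpbpb were listed at 0 in the controls of 10 and 9 of the 10 batches. The sum of 7 markers of the decidua, the maternal tissue, ran from 2.94 to 533 TPM, and its member Prl8a2 reached 1 TPM in 1 of all 200 libraries. In these bulk pools, more trophoblast cells and more hormone RNA per cell cannot be told apart. Genes at 1 TPM or more numbered 3986 to 13512 per library and were fewest in the Zbtb17 E4.5 table. The targeted transcript was called lower in the Suz12, Ezh2, Elf5, Tfap2c, Zfp57 and Fos knockouts and in batch 8 of Bend3. In the Hdac1 Hdac3 double knockout Hdac1 was called lower and Hdac3 was not called. The targeted transcript was called higher in the libraries labelled Myc, Cxxc1 and, in batch 7, Bend3 knockout. In the other screen knockouts tested it was not called or could not be tested. A CRISPR knockout need not remove the transcript, so its level is only a partial check of the label.

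In Epi of the Suz12 Eed double knockout, which removes core subunits of Polycomb repressive complex 2, 4 of the 5 genes stood above the controls in every library. Prl7a1, whose product acts on blood cell precursors in the mouse, had 70.7, 34.9 and 60.3 TPM in the double knockout and was listed at 0 in the 3 controls. Prl2c5, a proliferin, had 38.8, 66.3 and 65.1 TPM in the double knockout against 0.935, 0 and 0 TPM in controls. Neither gene overlapped between groups.

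Prl5a1, which encodes prolactin-like protein L, had 21.6, 41.9 and 47.3 TPM in the double knockout and 1.76, 0.993 and 1.73 TPM in controls. Prl2a1, which encodes prolactin-like protein M, had 9.70, 13.8 and 15.4 TPM in the double knockout and was listed at 0 in the controls. Prl4a1, which encodes prolactin-like protein A, a ligand of uterine natural killer cells in the mouse, was listed at 0 in all 6 libraries. Of all genes past the filter on low values, 10.6% had every knockout library above every control, and since this contrast chose members nothing is read from the count. Prl3d1 averaged 172 ± 20.9 TPM in the same knockout libraries and 1.17 ± 0.605 TPM in the controls (SD, n = 3 each).

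Sums of giant cell and of extraembryonic ectoderm markers were higher in the double knockout. The list used as giant cell markers held Hand1, Gata2, Ctsq, Plac1, Lepr, Rhox6 and Rhox9. Whether these genes were read in giant cells alone was not tested. Their sum adds up transcripts and is no count of cells. The sum of 7 giant cell markers was 1768 to 2170 TPM in double knockout Epi against 99.3 to 145 TPM in control Epi. The extraembryonic ectoderm sum was 4419 to 5059 TPM in the double knockout and 1550 to 1638 TPM in controls, while the epiblast sum was 916 to 1130 TPM and 1795 to 2448 TPM in the same order of groups. The giant cell markers Ctsq and Lepr were listed at 0 in the controls, Lepr also in the double knockout, and Tpbpb in both. The part of these cells in the hormone levels was not tested. The targeted transcripts averaged 11.9 ± 5.48 TPM for Suz12 and 45.2 ± 6.47 TPM for Eed in the double knockout, against 24.7 ± 4.14 and 179 ± 23.3 TPM in controls (SD, n = 3 each).

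In PrE of the same double knockout the genes were near 0. Prl7a1 had 10.3, 2.29 and 0 TPM in the double knockout and was listed at 0 in the controls, so 1 knockout library equalled the controls. Prl5a1 had 0.264, 0 and 0 TPM in the double knockout and 1.44, 2.51 and 1.87 TPM in controls, the opposite side from Epi. Prl2a1 and Prl4a1 each had 1 knockout library above 0, at 0.650 and 0.377 TPM, and Prl2c5 had none. PrE control libraries 1 and 2 were nearly identical (Pearson r = 0.9972 on the log2 scale) and were counted as 1 sample. The giant cell sum was 366 to 432 TPM in double knockout PrE and 208 to 252 TPM in control PrE. Of all genes past the filter, 11.3% had every PrE knockout library below every control.

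**Figure D1:**
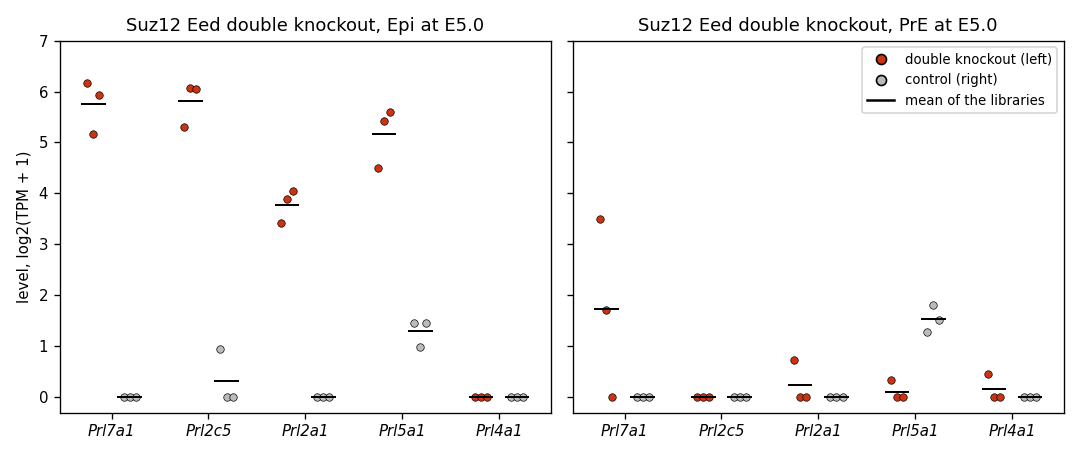
Level of the 5 genes, as log2(TPM + 1), in each library of the Suz12 Eed table, with Epi on the left and PrE on the right; double knockout libraries stand left of controls for each gene and bars are means. In Epi, Prl7a1, Prl2c5, Prl2a1 and Prl5a1 lie above every control library, while Prl4a1 is at 0 throughout; 2 of the 3 PrE control points are nearly identical libraries.

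The screen asked the same of 39 further knockout comparisons, which were fitted together with limma on log2(TPM + 1) and adjusted by Benjamini-Hochberg over all genes of a comparison, with a threshold of 0.05. Aurkb was left out of the fit because its 3 libraries were nearly identical (Pearson r of at least 0.9987). Of 195 gene and knockout pairs, 126 passed the filter on low values, which asks for 1 TPM in a number of libraries equal to the size of the smaller group. Limma called 95 of them, 55 higher and 40 lower in the knockout, where 10.1% of all gene and knockout pairs were called (5.04% higher and 5.1% lower). In 22 of the 126 pairs every control was below 1 TPM (21 called higher) and in 6 every knockout library was (6 called lower). Such pairs passed through 1 group alone and had to differ, so these counts and their p-values are a description. Further pairs, not in these counts, had only 1 library of the lower group at 1 TPM or more. They too needed the other group to pass, so their direction was all but set. Counts within a batch share their controls.

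Prl7a1 was tested in 37 comparisons and called higher in 19 and lower in 11. Prl5a1 was called higher in 14 and lower in 11 of 34, Prl2a1 higher in 13 and lower in 7 of 27, and Prl2c5 higher in 8 and lower in 8 of 24. Prl4a1 passed in 4 comparisons, each time through 1 group alone, and was called higher in 1 and lower in 3. For Prl3d1 the count was 21 higher and 5 lower of 37. At least 1 of the 5 genes was called in 35 of 39 comparisons, in 16 of them only higher, in 8 only lower and in 11 both ways.

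**Figure D2:**
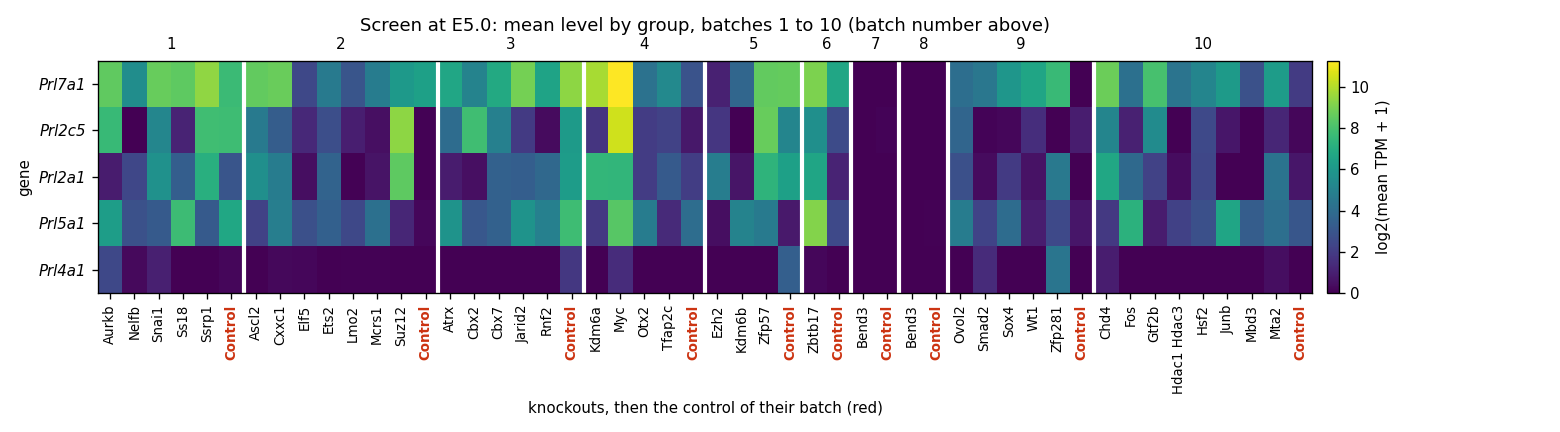
Mean level of the 5 genes (rows) in the 50 screen groups (columns), as log2(mean TPM + 1) by colour, with the knockouts of each batch left of their control, named in red. The column labelled Myc in batch 4 holds the highest cells for Prl7a1 and Prl2c5, and for Prl7a1 the control columns of batches 1, 3 and 5 are bright where those of batches 7, 8 and 9 are dark.

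The controls themselves differed more between batches than libraries did within a group. Prl7a1 averaged 659 ± 16.6 TPM in the controls of batch 3, 391 ± 22.0 TPM in batch 5, 209 ± 12.3 TPM in batch 1 and 6.52 ± 2.02 TPM in batch 4 (SD, n = 3 each), and was listed at 0 in the controls of batches 7, 8 and 9. Prl2c5 control means ran from 0 to 223 TPM, Prl5a1 from 0 to 219 TPM, Prl2a1 from 0 to 84.3 TPM and Prl4a1 from 0 to 9.70 TPM. All these groups are labelled wild-type Epi with stage E5.0, apart from the age of 6.0 in the titles of batch 8.

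On the log2(TPM + 1) scale the SD of the 10 control group means was 3.79 for Prl7a1, 2.92 for Prl2c5, 2.85 for Prl5a1 and 2.53 for Prl2a1. The median SD within a group was 0.19, 0.18, 0.34 and 0.42 for the same genes. In batch 3, where Prl7a1 was highest, the extraembryonic ectoderm sum of the controls was 2121 to 2164 TPM and the giant cell sum 814 to 869 TPM. In batch 7, where the gene was listed at 0, these sums were 3604 to 4611 TPM and 428 to 536 TPM. In batch 8, where all 5 genes were at or near 0, that sum was 333 to 525 TPM and the giant cell sum at most 0.662 TPM. The part of these cells in the control levels was not tested.

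**Figure D3:**
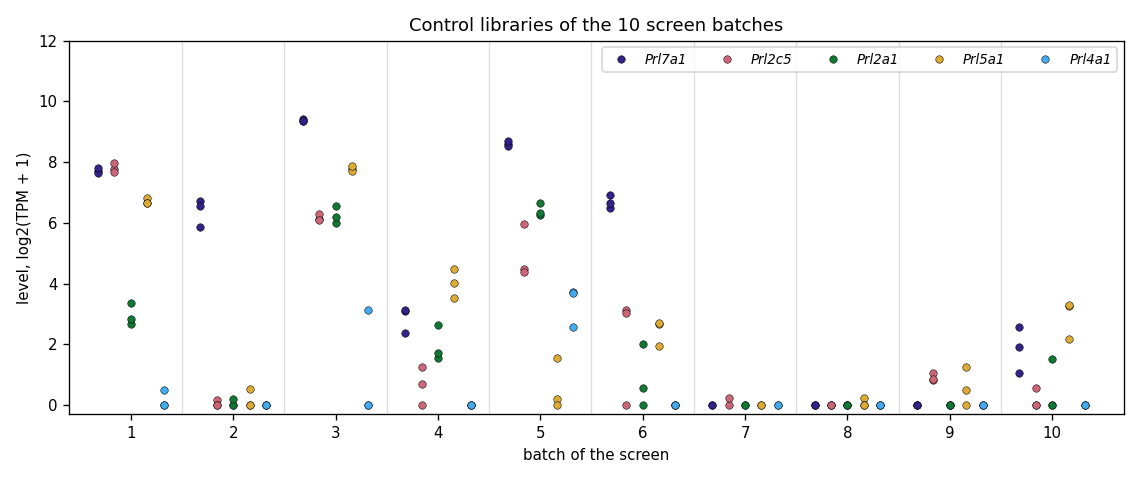
Level of the 5 genes, as log2(TPM + 1), in each control library of the 10 screen batches; each point is 1 library and colours are genes. Prl7a1 is high in batches 1, 3 and 5 and at 0 in batches 7, 8 and 9, with libraries of a batch lying close together.

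The direction of the calls went with the level of the batch control. In the 3 batches whose Prl7a1 control mean was above 200 TPM (1, 3 and 5), 33 of 50 tested pairs were called lower in the knockout and 6 higher, where 4.96% of all gene and knockout pairs in those batches were called lower and 3.9% higher. In the 3 batches whose mean was below 10 TPM and where pairs were tested (4, 9 and 10), 3 of 54 pairs were called lower and 32 higher, where 1.71% of all pairs were called lower and 2.9% higher. Part of this is built into the filter: 10 of the 32 had every control below 1 TPM and could only be called higher, and 6 of the 33 had every knockout library below 1 TPM and could only be called lower. Further pairs of both kinds had only 1 library of the lower group at 1 TPM or more. They also needed the other group to pass and are not in these counts. The Prl2a1 controls of batch 10, for example, had a median of 0 and a highest value of 1.89 TPM. All 5 knockouts of batch 3 (Atrx, Cbx2, Cbx7, Jarid2 and Rnf2) had at least 3 of the genes called lower and none higher, 17 of 20 pairs, where 0.442% to 1.85% of all genes were called lower. In the Atrx knockout Prl2c5 and Prl5a1 lost the call when some single libraries were left out (limma adjusted p = 0.052 to 0.11). A pseudocount of 0.1 ended both. It also ended the Prl2a1 calls in the Cbx7, Jarid2 and Rnf2 knockouts and the Prl5a1 calls in the Jarid2 and Rnf2 knockouts. Whether the batch 3 calls reflect the knockouts or a control that stood high cannot be told apart within that batch.

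Across all 50 groups, 7 knockout means lay above every control mean for Prl2a1, 5 for Prl2c5, 3 for Prl7a1, 2 for Prl5a1 and 1 for Prl4a1; none could lie below, since for each gene a control mean was 0. This sets groups of different batches side by side and is a description. Knockout groups with every library above every control library of all batches numbered 4 for Prl2a1, 3 for Prl2c5, 2 for Prl5a1, 1 for Prl7a1 and 1 for Prl4a1.

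The libraries labelled Myc knockout held the highest Prl7a1 and Prl2c5 of the series. Prl7a1 was at 2367, 2569 and 2618 TPM in these libraries, against 7.59, 7.77 and 4.19 TPM in the controls of batch 4. The groups did not overlap, and Prl7a1 rose by 8.43 ± 0.47 (log2 change ± SE, limma adjusted p = 9e-31). Prl2c5 was at 1449, 1342 and 1561 TPM in these libraries and at 0, 1.37 and 0.612 TPM in the controls, a log2 change of 9.86 ± 0.59 (limma adjusted p = 2.5e-28). Among these controls only 1.37 TPM reached 1 TPM. The Prl2c5 pair thus passed the filter through the libraries labelled Myc knockout. Its direction was all but set, so its p-value is a description.

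Prl5a1 was at 295, 350 and 349 TPM in the libraries labelled Myc knockout against 10.6, 15.1 and 21.2 TPM in controls, and Prl2a1 was at 141, 168 and 205 TPM against 1.94, 2.30 and 5.27 TPM. Both rose, with limma adjusted p = 1.2e-10 for Prl5a1 and 5.2e-10 for Prl2a1, so 4 of 4 tested genes were called higher where 6.9% of all genes were. Prl2c5 is among these 4, and the filter all but set its direction. The other proliferin genes followed at lower levels: Prl2c4 averaged 96.8 ± 5.27, Prl2c2 52.2 ± 2.04 and Prl2c3 50.8 ± 17.4 TPM (SD, n = 3). Prl3d1 averaged 4612 ± 184 TPM there and 8.01 ± 4.57 TPM in controls. The Myc transcript went against the label, at 145 ± 14.2 TPM in the libraries labelled knockout and 56.6 ± 11.6 TPM in controls (SD, n = 3 each), so the direction holds only for libraries so labelled. The extraembryonic ectoderm sum was 5747 to 6194 TPM in these libraries and 2931 to 3232 TPM in controls, and the giant cell sum 940 to 1028 TPM and 384 to 417 TPM in the same order; their part was not tested.

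Knockouts of Polycomb subunits did not move the genes in 1 direction. In the Suz12 single knockout, Prl2c5 was at 724, 615 and 670 TPM against 0.125, 0 and 0 TPM in the controls of batch 2. Prl2a1 was at 371, 373 and 349 TPM in the Suz12 knockout and at 0, 0 and 0.155 TPM in controls, the highest Prl2a1 of any group. The groups lay far apart for both, with log2 changes of 9.33 ± 0.59 (limma adjusted p = 4.4e-27) for Prl2c5 and 8.44 ± 0.69 (limma adjusted p = 1.3e-19) for Prl2a1. Both genes passed the filter through the knockout alone and could only be called higher, so these p-values are a description. Of all genes, 14.5% were called higher.

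Prl7a1 was not called in the Suz12 knockout, at 54.4, 71.4 and 72.2 TPM against 104, 56.8 and 92.2 TPM in controls, a log2 change of -0.32 ± 0.47 (limma adjusted p = 0.70). Its controls in batch 2 overlapped the double knockout levels of the other table. Prl5a1 did not pass the filter, at 4.03, 0 and 0 TPM in the Suz12 knockout against 0, 0 and 0.448 TPM in controls. The giant cell sum was 8830 to 9029 TPM in the Suz12 knockout and 759 to 823 TPM in controls, the highest of any screen group, and the Suz12 transcript averaged 4.50 ± 0.863 TPM against 25.5 ± 6.23 TPM (SD, n = 3 each).

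The Ezh2 knockout, which removes the methyltransferase of the same complex, went the other way in batch 5. Prl7a1 was at 0.705, 0.513 and 1.94 TPM in the Ezh2 knockout against 386, 371 and 414 TPM in controls. It fell by 7.64 on the log2 scale (SE 0.47, limma adjusted p = 2.4e-27). Prl2c5, Prl2a1 and Prl4a1 were called lower as well, 4 of 4 tested genes where 14.5% of all genes were called lower. Of these, Prl4a1 passed the filter through the controls alone and could only be called lower. Prl7a1 and Prl2c5 also passed through the controls, since a single Ezh2 knockout library reached 1 TPM for each. These were at 1.94 TPM for Prl7a1 and 6.30 TPM for Prl2c5. The direction of these genes was all but set, so their calls and the count are a description. Prl2a1 varied most among the knockout libraries, at 0.308, 36.0 and 43.98 TPM in the Ezh2 knockout against 75.3, 99.1 and 78.4 TPM in controls. Without Ezh2 knockout replicate 1 its log2 change was -1.05 and not called (limma adjusted p = 0.32).

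The placental lactogens fell too: Prl3d1 averaged 3.33 ± 2.39 TPM in the Ezh2 knockout and 1282 ± 131 TPM in controls (SD, n = 3 each; limma adjusted p = 4.7e-19), and Prl3d2 and Prl3d3 were called lower. The giant cell sum was 3642 to 4085 TPM in the Ezh2 knockout and 315 to 373 TPM in controls, with 3 of 5 tested markers called higher and 0 lower. Of 10 extraembryonic ectoderm markers 3 were called higher and 2 lower, of 3 ectoplacental cone markers 1 was called lower, and of 9 epiblast markers 3 were called higher and 3 lower; their part was not tested. The Suz12 and Ezh2 knockouts were in different batches, and the difference between them was not tested. The controls of batch 5 held Prl7a1 at 391 TPM on average and those of the Suz12 Eed table at 0.

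In batch 3, Jarid2, a Polycomb repressive complex 2 cofactor, and Rnf2, Cbx2 and Cbx7, subunits of Polycomb repressive complex 1, were knocked out against the same high controls. Prl7a1 was at 28.2, 30.9 and 38.3 TPM in the Cbx2 knockout, at 84.7, 103 and 88.6 TPM in the Rnf2 knockout and at 111 to 120 TPM in the Cbx7 knockout, against 652, 678 and 646 TPM in controls. These 3 falls passed the test (log2 changes of -4.31, -2.83 and -2.51, each ± 0.47 SE, with limma adjusted p = 2.5e-12, 5.8e-06 and 0.00015). In the Jarid2 knockout Prl7a1 had 435, 552 and 480 TPM and was not called (limma adjusted p = 1).

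Prl5a1 was lower in all 4 of these knockouts, with log2 changes between -4.74 in the Cbx2 and -2.01 in the Jarid2 knockout. The Jarid2 call was lost without knockout replicate 1 (limma adjusted p = 0.15) or without any 1 control (0.072 to 0.11). Prl2a1 was called lower in all 4 as well, and lost the call in the Cbx7, Jarid2 and Rnf2 knockouts when single libraries were left out, in the Rnf2 knockout with 5 of the 6 and with the replicate block (limma adjusted p = 0.052). In the Cbx2 knockout, where it had at most 1.11 TPM, Prl2a1 passed the filter through the controls. Prl2c5 differed among them. It was at 228, 229 and 231 TPM in the Cbx2 knockout and at 0.449, 0.275 and 0 TPM in the Rnf2 knockout, against 69.2, 76.8 and 67.5 TPM in controls. The Rnf2 fall was called (limma adjusted p = 6.3e-14). That pair passed the filter through the controls alone and could only be called lower. The Cbx2 difference was not called (log2 change 1.68 ± 0.59, limma adjusted p = 0.18), though its libraries did not overlap. Genes called lower made up 0.631% of all genes in the Cbx2, 0.797% in the Rnf2, 0.442% in the Cbx7 and 0.706% in the Jarid2 knockout. The Cbx2, Cbx7, Jarid2 and Rnf2 transcripts were not called lower in their own knockouts.

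The H3K27 demethylase knockouts stood on opposite sides for Prl7a1 and Prl2a1, in different batches. In the Kdm6a knockout Prl7a1 was at 895, 608 and 1195 TPM against 7.59, 7.77 and 4.19 TPM in controls, and rose by 6.89 ± 0.47 on the log2 scale (limma adjusted p = 2.7e-23). In the Kdm6b knockout it was at 13.7, 12.2 and 11.4 TPM against 386, 371 and 414 TPM in controls, and fell by 4.87 (SE 0.47, limma adjusted p = 2.8e-15). Neither pair of groups overlapped.

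Prl2a1 was at 164, 147 and 218 TPM in the Kdm6a knockout against 1.94, 2.30 and 5.27 TPM in controls, and at 1.72, 0 and 0 TPM in the Kdm6b knockout against 75.3, 99.1 and 78.4 TPM. Prl5a1 did the reverse of Prl7a1 in both. It was at 2.26, 0 and 5.77 TPM in the Kdm6a knockout against 10.6, 15.1 and 21.2 TPM (called lower, limma adjusted p = 0.00035), and at 38.2, 33.8 and 24.5 TPM in the Kdm6b knockout against 0.162, 1.95 and 0 TPM (called higher, limma adjusted p = 5.2e-11). Among those Prl5a1 controls only 1.95 TPM reached 1 TPM, and among the Prl2a1 libraries of the Kdm6b knockout only 1.72 TPM did. Both Kdm6b pairs passed the filter through the higher group. Their direction was all but set, so these calls are a description. In the Kdm6a knockout 9.29% of all genes were called and in the Kdm6b knockout 22.7%. The giant cell sum was 779 to 862 TPM in the Kdm6a knockout and 384 to 417 TPM in its controls, and 176 to 264 TPM in the Kdm6b knockout and 315 to 373 TPM in its controls. In the Kdm6b knockout 2 of 5 tested giant cell, 5 of 7 primitive endoderm and 4 of 9 epiblast markers were called lower; the part of these cells was not tested.

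**Figure D4:**
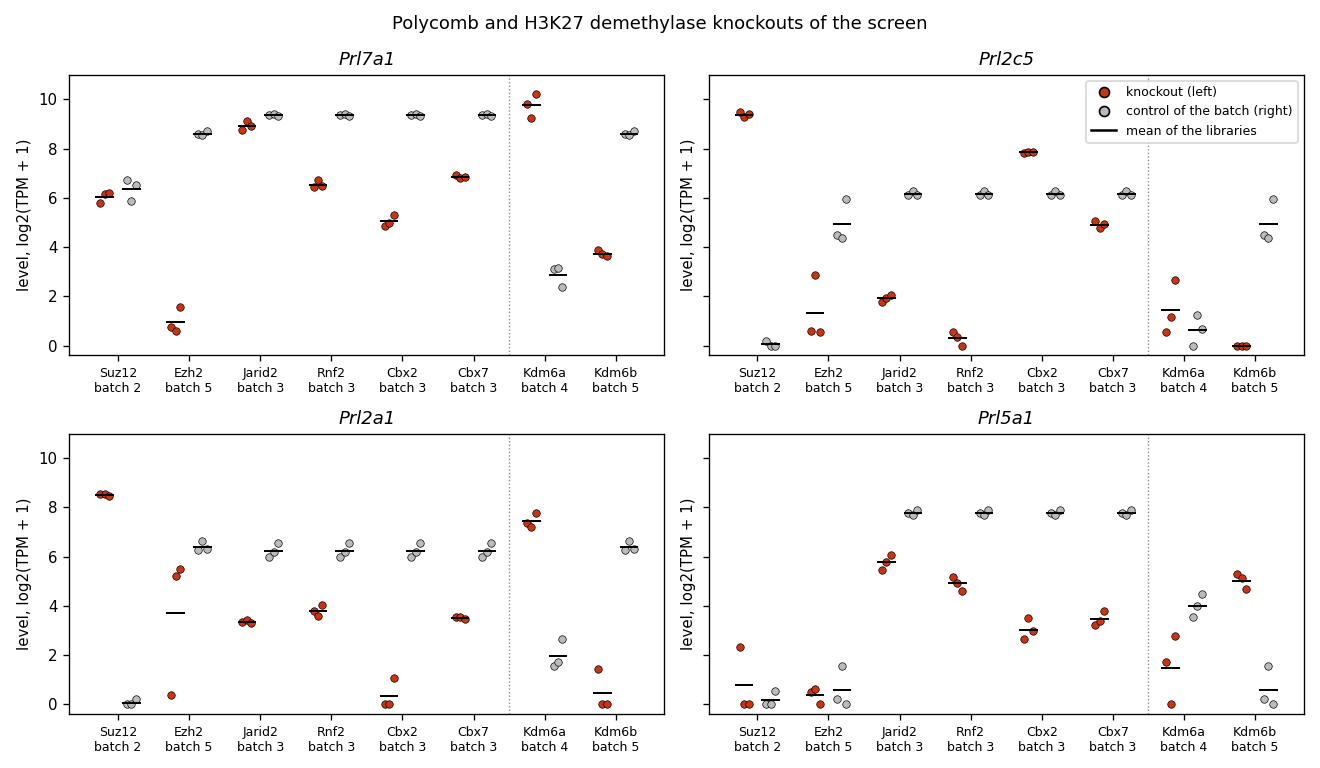
Level of Prl7a1, Prl2c5, Prl2a1 and Prl5a1, as log2(TPM + 1), in each library of 6 Polycomb knockouts and, right of the dotted line, 2 H3K27 demethylase knockouts; knockout libraries stand left of the controls of their batch and bars are means. Suz12 stands high for Prl2c5 and Prl2a1 against controls near 0, Ezh2, Rnf2, Cbx2 and Cbx7 stand low against high controls for Prl7a1, and Kdm6a and Kdm6b lie on opposite sides of their controls for Prl7a1, Prl2a1 and Prl5a1.

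Prl5a1 had its highest level in the Zbtb17 knockout of batch 6. It was at 595, 662 and 527 TPM there against 2.86, 5.34 and 5.46 TPM in controls, a log2 change of 6.78 ± 0.53 (limma adjusted p = 1.6e-20). Prl7a1 was at 505, 615 and 496 TPM against 119, 89.8 and 99.8 TPM, Prl2a1 at 120, 80.1 and 97.8 TPM against 2.99, 0.476 and 0 TPM, and Prl2c5 at 48.1, 56.9 and 39.7 TPM against 0, 7.79 and 7.18 TPM. All 4 tested genes were called higher, with no overlap, where 10.5% of all genes were; fitted on batch 6 alone, Prl2c5 lost the call (limma adjusted p = 0.051). Among the Prl2a1 controls only 2.99 TPM reached 1 TPM. The Prl2a1 pair thus passed the filter through the knockout, and its direction was all but set. The extraembryonic ectoderm sum was 8814 to 12064 TPM in the Zbtb17 knockout and 3242 to 4025 TPM in controls, and its part was not tested. The Zbtb17 transcript, at 6.93 ± 7.09 TPM in the knockout and 2.65 ± 2.06 TPM in controls (SD, n = 3 each), was not called.

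Degradation of Zbtb17 with dTAG, in another table, gave a mixed picture at lower levels. Prl5a1 was at 74.6, 101 and 123 TPM after dTAG against 33.9, 18.3 and 11.6 TPM in controls, and rose by 2.27 ± 0.34 on the log2 scale (limma adjusted p = 0.0020). Prl7a1 was at 29.1, 21.2 and 17.9 TPM after dTAG against 6.26, 7.24 and 6.96 TPM, and rose by 1.58 ± 0.31 (limma adjusted p = 0.0091). Prl2a1 was at 7.06, 12.8 and 11.02 TPM after dTAG and listed at 0 in the controls.

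Prl4a1 was listed at 0 in all 3 dTAG libraries against 15.3, 10.9 and 30.5 TPM in controls, the only controls outside the screen that held it. Prl2c5 was listed at 0 in all 6 libraries. Prl2a1 and Prl4a1 passed the filter through 1 group alone and had to differ, so only the Prl5a1 and Prl7a1 calls could have gone either way; 11.7% of all genes were called, 7.2% higher and 4.49% lower. Prl3d1, at 4.47 ± 2.30 TPM after dTAG and 324 ± 42.9 TPM in controls (SD, n = 3 each), fell in the same libraries (limma adjusted p = 4.5e-06). The giant cell sum was 531 to 570 TPM after dTAG and 181 to 193 TPM in controls, and its part was not tested. The transcript of Zbtb17 does not check a protein degrader.

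With GSK-J4 at E5.0 only Prl7a1 passed the filter. It was listed at 0 in the 3 treated libraries against 14.2, 17.2 and 17.9 TPM in controls. It passed through the controls alone and so could only be called lower, as 11.7% of all genes were (28.3% in either direction). Prl2a1 had 5.43 TPM in 1 treated library and at most 0.302 TPM in controls, and Prl2c5, Prl5a1 and Prl4a1 stayed under 1 TPM in all 6. Prl3d1 was also listed at 0 in the treated libraries against 14.4 ± 4.50 TPM in controls (SD, n = 3).

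In the same libraries, 16 of 16 primitive endoderm markers were called higher, with a sum of 2816 to 2969 TPM after GSK-J4 and 140 to 171 TPM in controls. The epiblast sum was 574 to 733 TPM after GSK-J4 and 1567 to 1620 TPM in controls, and the extraembryonic ectoderm sum 2920 to 3072 TPM and 3959 to 4231 TPM in the same order. The part of this shift in the Prl7a1 level was not tested. At E4.5, Prl7a1 was at 3.95 TPM in 1 of 3 GSK-J4 libraries and at 0 in the others and in the controls, the other 4 genes were listed at 0 throughout, and none could be tested; 1.15% of all genes were called.

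**Figure D5:**
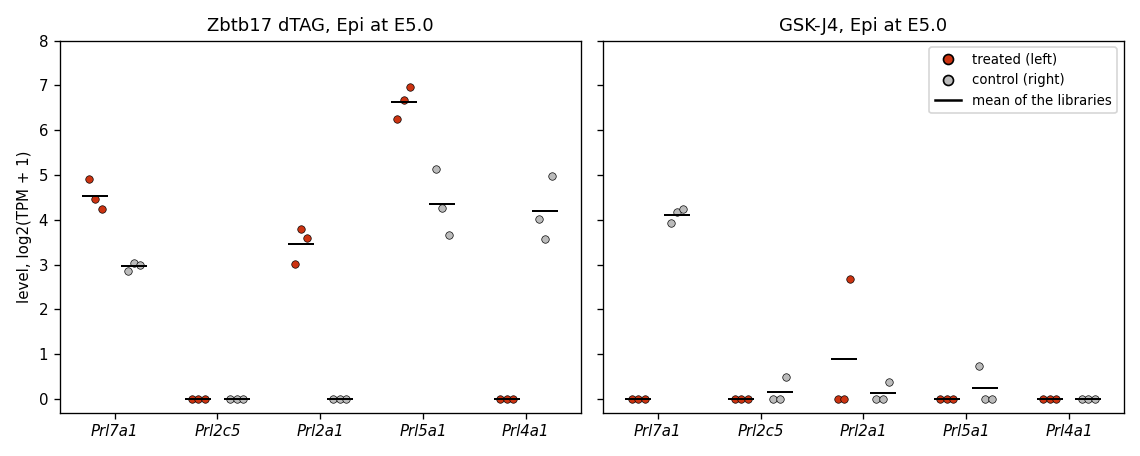
Level of the 5 genes, as log2(TPM + 1), in each E5.0 Epi library with dTAG against Zbtb17 (left) and GSK-J4 (right), treated libraries left of controls and bars at the means. After dTAG, Prl7a1, Prl2a1 and Prl5a1 lie above and Prl4a1 below the controls; with GSK-J4, Prl7a1 is at 0 against controls of 14.2 to 17.9 TPM.

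Zbtb17 knockout Epi at E4.5 listed all 5 genes at 0, as did its controls, and 0.131% of all genes tested were called. These libraries list Tbp, a general transcription factor gene, at 0 in 3 of 6, so a 0 there says little. In embryoid bodies the 5 genes never passed 0.332 TPM in 16 libraries, in either genotype at any day, and none was tested, while 47% of all gene and day pairs were called between genotypes. The paralogues Prl2c2, Prl2c3 and Prl2c4 were listed there: Prl2c2 averaged 9.53 ± 1.58 TPM in day 2 Zbtb17 knockout bodies and 0.953 ± 0.511 TPM in wild type (SD, n = 2 each), and was called higher (limma adjusted p = 6.1e-05), where 17.9% of all genes were. At day 1 none of the 3 was called, with log2 changes of -0.16 for Prl2c2, -0.25 for Prl2c3 and 0.03 for Prl2c4.

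In the Zfp281 knockout 3 of the genes were listed where no control of the batch held them, among them Prl4a1. Prl4a1 was at 15.6, 19.4 and 24.5 TPM in the Zfp281 knockout and listed at 0 in the controls of batch 9. Prl7a1 was at 169, 231 and 211 TPM and Prl2a1 at 14.4, 25.4 and 27.6 TPM in the same knockout, and both were listed at 0 in the controls. These 3 genes passed the filter through the knockout alone and had to differ, so their calls are a description; 1.15% of all genes were called higher. The giant cell sum was 521 to 604 TPM in the Zfp281 knockout and 285 to 325 TPM in controls. Prl4a1 was called lower in the Ezh2, Kdm6b and Zfp57 knockouts, where it was listed at 0 against 4.94, 12.3 and 11.9 TPM in the shared controls of batch 5. There it passed the filter through the controls alone and could only be called lower. Prl2c5 rose in the Zfp57 knockout, at 402, 447 and 390 TPM against 21.6, 19.9 and 61.2 TPM (log2 change 3.75 ± 0.59, limma adjusted p = 4.6e-07); 5.37% of all genes were called higher there and 11.5% lower.

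The genes did not always move together. Prl5a1 and Prl7a1 were both called in 22 screen comparisons, in the same direction in 13 (both higher in 8, both lower in 5) and in opposite directions in 9. In batch 2 Prl5a1 was called higher and Prl7a1 lower in the Elf5, Ets2, Lmo2 and Mcrs1 knockouts. These share controls, and 25%, 23.4%, 5.11% and 17% of all genes were called in them. Every batch 2 control was below 1 TPM for Prl5a1, so there it could only be called higher. Prl5a1 was called lower and Prl7a1 higher in the Kdm6a, Tfap2c, Gtf2b and Ssrp1 knockouts, and the Kdm6b knockout had the opposite pair; 13.5% of all genes were called in the Tfap2c, 15.4% in the Gtf2b and 6.62% in the Ssrp1 knockout. Some of these calls rested on 1 library: Prl5a1 in the Elf5 knockout without knockout replicate 3 (limma adjusted p = 0.082), Prl7a1 in the Mcrs1 knockout without knockout replicate 1 (0.094) or control replicate 1 (0.061), and Prl7a1 in the Ssrp1 knockout without knockout replicate 1 (0.11) or control replicate 2 (0.055) were not called. Fitted batch by batch, Prl5a1 lost the call in the Elf5 (limma adjusted p = 0.0504) and Lmo2 (0.15) knockouts, and Prl7a1 in the Mcrs1 (0.051) and Ssrp1 (0.32) knockouts. Calls both ways without Prl7a1 were seen in 2 more knockouts: in the Snai1 knockout (1.49% of all genes called) Prl2a1 was higher and Prl2c5 and Prl5a1 lower, with the Prl2a1 call lost without knockout replicate 2 (limma adjusted p = 0.12), control replicate 2 (0.13) or control replicate 3 (0.087), and in the Zfp57 knockout Prl2c5 and Prl5a1 were higher and Prl4a1 lower. In the Tfap2c knockout, for example, Prl5a1 was at 1.22, 3.46 and 0 TPM against 10.6, 15.1 and 21.2 TPM in controls, and Prl7a1 at 46.1, 37.0 and 33.8 TPM against 7.59, 7.77 and 4.19 TPM.

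Among group means on the log2 scale over the 50 screen groups, Prl7a1 correlated with Prl2a1 at Pearson r = 0.68 and with Prl2c5 at 0.61, and Prl2c5 with Prl2a1 at 0.63. Prl5a1 correlated with Prl7a1 at 0.50, with Prl2c5 at 0.33 and with Prl2a1 at 0.26. Prl4a1 stood at 0.35 or less with each. With the extraembryonic ectoderm sum the values were 0.41 for Prl7a1, 0.36 for Prl2a1, 0.35 for Prl2c5, 0.27 for Prl5a1 and -0.01 for Prl4a1. With the giant cell sum the values were 0.51 for Prl7a1, 0.47 for Prl2a1, 0.41 for Prl2c5, 0.27 for Prl5a1 and 0.09 for Prl4a1. With the epiblast sum Prl7a1, Prl2a1, Prl2c5 and Prl5a1 lay between -0.42 and -0.32. Groups share batches, so these are descriptions.

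Other members of the family list were rarely listed apart from the lactogens. In the screen, Prl3d2 was called higher in 22 and lower in 6 of 37 comparisons, Prl3d3 higher in 20 and lower in 6 of 33, and Prl7d1, which encodes proliferin-related protein, higher in 5 and lower in 5 of 11. The 5 lower Prl7d1 calls shared the batch 3 controls at 39.6 ± 3.15 TPM. Their knockout means were at most 0.0847 TPM, so they could only be called lower. Prl2c2 was called higher in 2 of 3, and Prl2c1, Prl2c3, Prl2c4, Prl6a1, Prl7a2, Prl7c1 and Prl8a1 each passed the filter in 1 comparison and were called higher there. The last-named genes had control means of 0 there, or 0.207 TPM for Prl2c4, and could only be called higher. Of all gene and knockout pairs, 5.04% were called higher and 5.1% lower. Prlr, the prolactin receptor gene, was called higher in 2 of 5. The other 10 family genes passed in none.

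Genes most like each hormone gene were ranked by Pearson r of log2(TPM + 1) after the mean of the batch controls was subtracted, over 148 libraries and 13953 genes. Family genes, left out of the lists that follow, ranked among them: Prl3d1 (r = 0.70), Prl3d2 (0.69) and Prl3d3 (0.67) had ranks 1, 2 and 4 for Prl7a1, Prl2a1 (0.63) had rank 2 for Prl2c5, and Prl3d1 (0.61) had rank 2 for Prl4a1. Among other genes, for Prl2a1 they were Serpinb9e (r = 0.71), Psg22 (0.71) and Serpinb6b (0.71), followed by Dnase1l3 and Hsd3b6. For Prl7a1 they were Il23a (0.68), Psg22 (0.66) and C3ar1 (0.64), then Il24 and Cd52. Prl2c5 was most like Sct (0.65), Serpinb9c (0.62) and Krt19 (0.60), then Serpinb9e and Lgals9. For Prl5a1 the nearest was Lbhd2 at 0.59, ahead of Nppb, Marcks, Stfa1 and Afdn. Prl4a1 reached 1 TPM in only 17 of these libraries, and its nearest genes, led by Tssk6 at 0.62, rest on those few values. Libraries of a batch share the control mean that was subtracted. Each library counted as a point, the nearly identical Aurkb libraries too, so all these ranks are descriptions.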

How the data were processed

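The deposited tables hold TPM per gene and library, made by the authors. Per the submitters' processing notes, the tools include StringTie 2.2.1, HISAT2 2.2.1 and Cufflinks, and the build is mm10; which tool did what is not given in the sources used here. Libraries summed to 984852 to 993453 TPM. The embryoid body table has no gene column and was read in the row order of the screen table (Pearson r across genes was 0.905 in that order and at most 0.111 with rows shifted).

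The 5 genes, the marker lists and the comparisons were chosen with earlier results of these data known. Libraries of a group alike beyond Pearson r = 0.997 on log2(TPM + 1) were averaged (Aurkb knockout, PrE controls 1 and 2). Genes reaching 1 TPM in a number of libraries equal to the smaller group's size were tested on log2(TPM + 1), pseudocount 1, with limma 3.58.1 in R 4.3.3 (eBayes with trend), each table alone and all screen batches in 1 fit, with Benjamini-Hochberg adjustment per comparison at 0.05. Fold changes on this scale understate changes of low genes. The procedure was tested on simulated data. Named genes were the 5 members, the family list, the targeted genes and the 5 genes most like each member. Positions came from GENCODE vM21 and promoters from RefSeq, GRCm38.p6; all 5 members matched. Reading frames were the longest found in GENCODE transcripts. Python 3.11.15 and Biopython 1.88 were used. Alternatives were a pseudocount of 0.1, no filter, quantile normalization, the replicate number as a block, separate batch fits, all libraries kept, and each library left out.

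Equal replicate numbers paired the libraries by the check on deviations in 1 of 50 comparisons, Epi of the Suz12 Eed table.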

Additional observations from a re-analysis of the deposited data

Results flagged for a closer look

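Prl5a1 moved in opposite directions in the Suz12 Eed double knockout: every double knockout library lay above every control in Epi (log2 change 3.87) and below every control in PrE (log2 change -1.43). The difference between the lineages was not tested, because this table chose members. PrE levels were at most 2.51 TPM, and the PrE controls count as 2 samples.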

How the results depend on the processing

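None of the 100 called values changed direction under any of the alternatives run. Of the 100, 21 lost the call under at least 1 of them, 16 of these when 1 library was left out, 11 with a pseudocount of 0.1 and 8 when each batch was fitted alone. In the screen, 21 calls higher and 6 lower had passed the filter through 1 group alone, with every library of the other group below 1 TPM. So had the Prl2a1 and Prl4a1 calls with dTAG and the Prl7a1 call with GSK-J4. Further screen calls had only 1 library of the lower group at 1 TPM or more and also needed the other group to pass. The filter set or all but set the direction of all these calls, so its not changing says nothing about them. With each library number left out in turn, called screen pairs numbered 86 to 95, against 95 with all. The other settings run on all batches and knockouts gave 87 to 99 pairs. The block for the replicate number gave 94 screen pairs; it ended 1 call, Prl2a1 in the Rnf2 knockout, and changed no other, and the dTAG table shares no numbers. Alternatives added after seeing the data left out the knockouts whose targeted transcript was called higher, which gave 88 pairs (48 higher, 40 lower), and left out batch 3, which gave 78 pairs and moved the pairs called lower to 23 against 40. Without a filter 1 embryoid body pair was called, against 0. In the Suz12 Eed table a pseudocount of 0.1 moved the log2 differences in Epi to 9.05 for Prl7a1, 7.98 for Prl2c5, 7.004 for Prl2a1 and 4.50 for Prl5a1, and in PrE to 3.76 for Prl7a1 and -3.72 for Prl5a1. Quantile normalization moved Prl5a1 to -1.75 in PrE, and its difference between control PrE and control Epi to 0.63. Values near 0 cannot be ranked, since the depth is unknown.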
